A study of Equus caballus with 4 samples.

Results

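*HGF*, *FGF1*, *FGF2* and *FGF7*, the receptor genes *MET*, *FGFR1*, *FGFR2* and *FGFR4*, and the feedback inhibitor genes *SPRY1* and *SPRY2* were followed in equine satellite cells (ESC), the precursor cells of skeletal muscle fibres. They were found by the gene names given for the probes of a horse microarray. The 10 genes had 41 probes, among 24922 genes and unnamed transcripts on the array.

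The cells were isolated from the semitendinosus muscle of 6-month-old colts and pre-plated to reduce the number of fibroblasts. They were on the 3rd day of differentiation, and 1 group had been given HMB, a metabolite of leucine, for 24 h, at a dose that the methods state as 50 µM and the sample labels as 50 µg. The control group was kept in the same medium without HMB. Each of 4 arrays on 1 slide held labelled cRNA of HMB-treated cells in Cy5 and of control cells in Cy3. The dyes were never exchanged, so a dye bias of a probe is part of its ratio. The labels call the arrays biological replicates, but the sources do not name the colt or colts behind each channel. The description of every sample calls the Cy5 cells GO-treated where its title and source say HMB, and the title and source were followed.

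HGF is stored in the matrix around muscle fibres and, once released, activates quiescent satellite cells through its receptor MET. FGF2 promotes the proliferation of myoblasts and delays their fusion, and satellite cells carry mainly FGFR1 and FGFR4. These receptors signal through the RAS-ERK cascade, which in turn induces its own inhibitors, among them the sprouty proteins and the dual-specificity phosphatases.

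Values are log2 ratios of HMB over control, taken on each array from the dye-normalised signals of both channels, so that a positive value stands for more mRNA with HMB. To be tested, a probe needed 1 channel, the same throughout, that exceeded background clearly on each of the 4 arrays, which 27384 of 43603 probes met. The median signal of a spot over its local background was 3.16 to 3.82 in Cy3 and 4.68 to 5.85 in Cy5, depending on the array. Precision is limited by the number of arrays, and an exact reversal of the signs of 4 ratios has 8 outcomes, with a smallest two-sided *P* of 0.125. Means were therefore tested with a fit over all tested probes that pools information on their variance, and a gene was called changed at an adjusted *P* of at most 0.05. Each gene is represented by the tested probe with the brightest signal.

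Of the 10 genes, 9 were tested and 4 changed, namely *HGF*, *FGF2* and *FGF7*, which were higher with HMB, and *FGFR4*, which was lower. When both channels had to be well above background on every array, 8 were tested and 3 changed, since *FGFR4* was then not tested. Among all tested probes 22.8% changed, and among all 15546 tested genes and transcripts 22.5% changed, 10.9% being higher and 11.6% lower. The median log2 ratio was 0.08 over the 9 genes and 0.02 over all tested genes. Over the 9 genes it was 0.009 without array 1 and 0.05 with normexp background correction and loess. The direction of each of the 4 changed genes was the same on all 4 arrays. A call made on the same 4 ratios favours this, so it is no separate evidence. For *FGFR4* it includes array 4, where the HMB channel was not well above background. Without array 2 the count was 2, namely *HGF* and *FGF7*, and 2564 probes changed in all, compared with 6257 on the 4 arrays and 2729 without array 3. In contrast, *MET*, *FGFR1*, *FGFR2*, *SPRY1* and *SPRY2* had ratios of both signs among the arrays and means between -0.12 and 0.11.

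**Figure D1:**
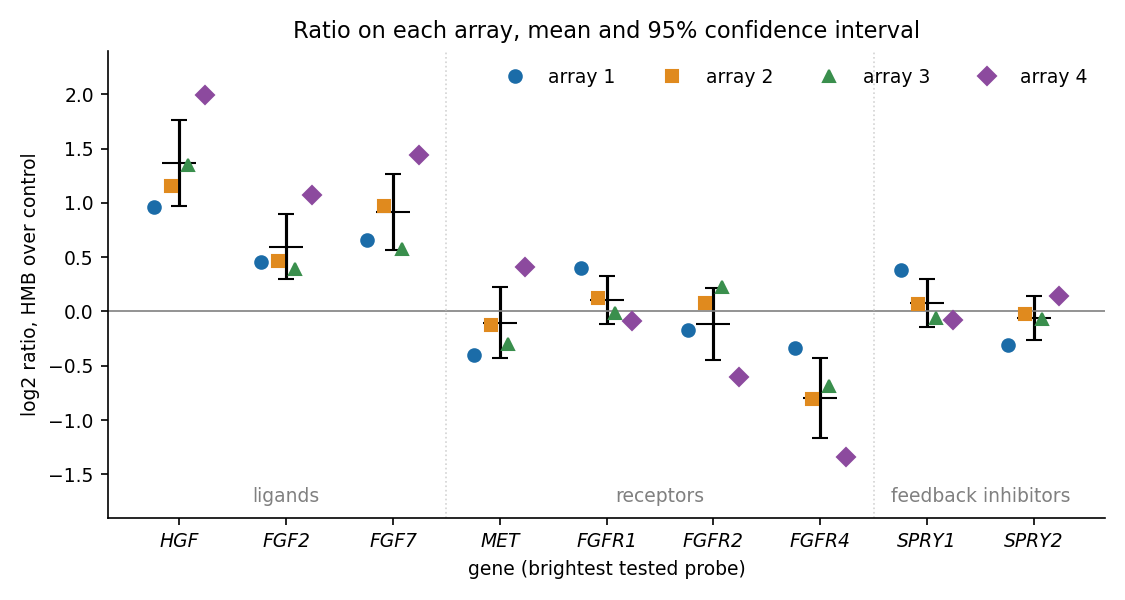
The log2 ratio of HMB over control (vertical axis) of the 9 tested genes (horizontal axis), with 1 symbol per array, the mean as a bar and its 95% confidence interval. *HGF*, *FGF2* and *FGF7* lie above 0 and *FGFR4*, whose HMB channel was not well above background on array 4, lies below 0 on all 4 arrays, and the other genes lie on both sides of 0.

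Markers of muscle cells were present, and were lower with HMB. Of 11 myogenic markers, 8 were found on the array, all 8 were tested and all 8 were lower, with a median of -0.94. They included *MYF5* (-1.01) and *MYOD1* (-0.46), transcription factors of myoblasts, *MYOG* (-0.42), which drives terminal differentiation, and *MYH3* (-1.11), embryonic myosin and the brightest of the list. Of the 2 tested probes of *MYOD1* the other had a mean of -0.20 and was not past the threshold. The summed signal of these markers had log2 ratios of -0.46, -1.003, -1.22 and -1.42 on arrays 1 to 4. No probe was named *PAX7*, the defining transcription factor of satellite cells, nor *CDH15* or *ITGA7*. Fewer cells of a type and less RNA per cell cannot be told apart in such samples. Without array 2 or 3, 5 of the 8 were past the threshold, with no filter on dim probes 2 (*MYF5* and *NCAM1*), and in a t-test of each probe on its own 0, although 7 had an unadjusted *P* under 0.05. With no lowess the list median was -0.55 and the mean of *MYH3* was -0.37 (adjusted *P* 0.0522, in a range from 0.00431 to 0.105 over the alternatives).

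Among 10 fibroblast markers, 9 were found and 8 tested, of which 2 were higher, with a list median of 0.01. *PDGFRA*, the platelet-derived growth factor receptor of mesenchymal cells, had ratios of 1.09, 1.38, 1.46 and 2.19, a mean of 1.53 and an adjusted *P* of 0.00358, and with normexp background correction and loess its mean was 0.89. The other was *FAP* (0.42), a membrane protease of activated fibroblasts, whose call was lost without array 1, 2 or 3, when only *PDGFRA* was past the threshold, and likewise with no filter on dim probes. In a t-test of each probe on its own 0 were past it, *PDGFRA* included (adjusted *P* 0.0775), although 2 had an unadjusted *P* under 0.05. When ratios were centred per array in place of lowess, 6 of the 8 were past the threshold, all 6 of them higher, and the list median was 0.66. The summed signal of the list, led by *COL1A2*, had log2 ratios of 0.27, -0.11, -0.13 and -0.47 on arrays 1 to 4, and *TCF21* was below the filter.

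Of the markers of other cell types, the endothelial markers *PECAM1*, *CDH5*, *KDR*, *VWF* and *TEK* and the adipocyte markers *ADIPOQ*, *FABP4* and *LEP* were all below the filter. Of 5 leukocyte markers on the array, *CD14* and *CD68* were tested, with a median of -0.13 and summed ratios of 0.20, 0.04, 0.00 and -0.17, *CD14* being the brightest, at 135 times background in Cy3. By limma 0 of these 2 changed, and 1 had an unadjusted *P* under 0.05. Of 4 pericyte or smooth muscle markers on the array, 3 were tested, with a median of -0.01, summed ratios of -0.09, -0.22, 0.01 and -0.19, and *CSPG4* as the brightest. *MYH11*, smooth muscle myosin, was the 1 called lower (adjusted *P* 0.0368). Its HMB channel was well above background on arrays 1 to 3 and not on array 4, so it was tested through the control group. With both channels well above background 2 of the list were tested and by limma 0 changed. The mean of *MYH11* was -0.76 on arrays 1 to 3 (adjusted *P* 0.00893). Its adjusted *P* was 0.0802, 0.0701 and 0.0535 without array 1, 2 or 3, in a range up to 0.295 over the alternatives.

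*HGF* was the ligand with the largest mean ratio of those tested. Its processed signal on arrays 1 to 4 was 39.8, 37.6, 45.5 and 52.3 in control cells and 77.7, 83.5, 116 and 209 with HMB. The highest control signal was thus below the lowest HMB signal, and array 4 had the highest signal of both groups. The log2 ratios were 0.97, 1.15, 1.34 and 2.00. Their mean of 1.36 (SE 0.16, 95% confidence interval 0.97 to 1.76) corresponds to 2.57-fold more mRNA with HMB, and the adjusted *P* was 0.00435. Both channels were well above background on all 4 arrays, but the control signal was dim. It averaged 2.65 times the local background, below the Cy3 medians of 3.16 to 3.82, and the HMB signal 6.76 times. The size of the fold therefore depends on how background is removed. With normexp background correction and loess the mean was 0.79, still past the threshold, and that of *FGF7* was 0.81, so their order turned. *HGF* has a single probe, for the transcript ENSECAT00000012234, at 25922942 to 25923001 on the minus strand of chromosome 4 of EquCab1. It is shown 5′ to 3′, with no base in capitals, because the ratio rests on this one sequence.
HGF: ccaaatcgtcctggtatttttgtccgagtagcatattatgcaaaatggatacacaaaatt

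*FGF2*, basic fibroblast growth factor, was 1.51-fold higher. Its signal was 1247, 1109, 1429 and 1559 in control cells and 1707, 1534, 1870 and 3279 with HMB on arrays 1 to 4. The groups overlapped, since the HMB signal of array 2 was below the control signal of array 4, but on each array HMB was above its own control. The log2 ratios were 0.45, 0.47, 0.39 and 1.07, so that arrays 1 to 3 lay close together and array 4 stood apart. The mean was 0.60 (SE 0.12, 95% confidence interval 0.30 to 0.89) with an adjusted *P* of 0.0204. Without array 2 the adjusted *P* was 0.0539, above the threshold, in a range from 0.0118 to 0.153 over the alternatives.

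All 5 probes of *FGF2* changed, with means from 0.60 to 0.64. They are not independent measurements, since they begin at neighbouring bases of NM_001195221 and share 56 of their 60 bases. The brightest is at 90748064 to 90748123 on the minus strand of chromosome 2 of EquCab1 and is given 5′ to 3′, with the shared bases in capitals, to show how far the probes repeat 1 another.
FGF2: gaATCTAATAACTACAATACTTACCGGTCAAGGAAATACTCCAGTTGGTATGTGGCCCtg

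*FGF7*, keratinocyte growth factor, a ligand that mesenchymal cells secrete towards epithelia, was 1.88-fold higher. On arrays 1 to 4 its signal was 294, 277, 427 and 604 in control cells and 466, 544, 637 and 1639 with HMB. As with *FGF2*, the groups overlapped between arrays but not within an array, and array 4 was highest in both groups. The log2 ratios of 0.66, 0.97, 0.58 and 1.44 had a mean of 0.91 (SE 0.15, 95% confidence interval 0.56 to 1.26) and an adjusted *P* of 0.00964. *FGF7* and *HGF* were past the threshold with any 1 of the arrays left out.

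The 5 probes of *FGF7* all changed, with means from 0.85 to 0.92. They begin at bases 637, 657, 677, 706 and 1483 of NM_001163883, so that the last shares no base with the others, and its ratios were 0.83, 0.69, 0.56 and 1.58. The brightest, at 137808335 to 137808394 on the minus strand of chromosome 1 of EquCab1, is given 5′ to 3′, with the 20 bases common to the first 3 probes in capitals, because these probes tile the transcript where those of *FGF2* repeat.
FGF7: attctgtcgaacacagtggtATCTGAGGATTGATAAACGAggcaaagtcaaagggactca

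**Figure D2:**
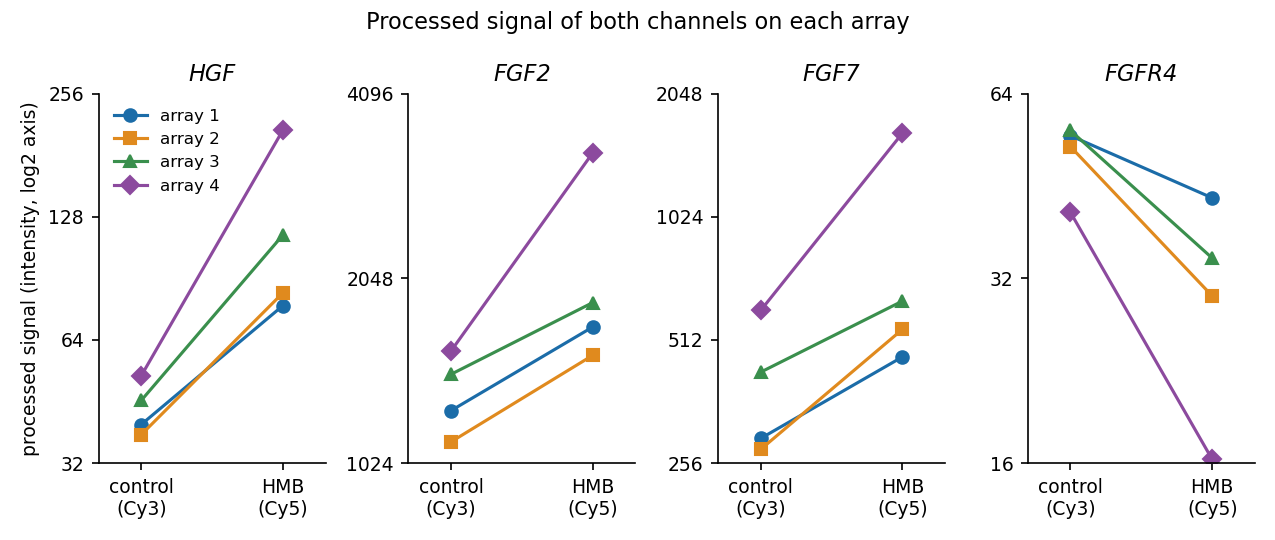
Processed signal in intensity units (vertical axis, log2 scale, a separate range for each gene) of control cells in Cy3 and HMB-treated cells in Cy5 (horizontal axis), a line joining the channels of each array. Every line rises for *HGF*, *FGF2* and *FGF7* and falls for *FGFR4*.

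*FGF1*, acidic fibroblast growth factor, which binds all the FGF receptors, could not be measured. None of its 6 probes was well above background on any array in either channel, and their mean signal was 1.57 to 2.05 times the local background. No ratio is given for it.

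The myogenic markers were lower, and these ligands higher, on all 4 arrays, and array 4 had the highest ratio of *HGF*, *FGF2* and *FGF7* and the lowest summed ratio of both the myogenic and the fibroblast markers. Of the 8 tested fibroblast markers, *COL1A2*, *COL3A1*, *FAP*, *DCN* and *LUM* were lowest on array 4, and *PDGFRA* and *POSTN* were highest there. The part of the muscle and fibroblast markers in the ratios of the ligands was not tested.

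*FGFR4*, a receptor gene expressed in differentiating myoblasts, was the receptor gene that fell. Its signal was 54.6, 52.5, 55.7 and 41.0 in control cells and 43.3, 29.95, 34.5 and 16.2 with HMB on arrays 1 to 4. The groups overlapped, as the HMB signal of array 1 was above the control signal of array 4. The control channel was well above background on 4 arrays and the HMB channel on 3, all but array 4, so the gene was tested through the group in which it was higher. The log2 ratios were -0.34, -0.81 and -0.69 on arrays 1 to 3, where both channels were measured, with a mean of -0.61 and an adjusted *P* of 0.0213. With array 4, where the ratio was -1.34 against an HMB signal not well above background, the mean was -0.79 and the adjusted *P* 0.0168, and no fold is given. The adjusted *P* was 0.0542 without array 2 and 0.0511 without array 3, in a range from 0.0103 to 0.132 over the alternatives, and with normexp background correction and loess the mean was -0.37, still past the threshold.

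The single probe of *FGFR4*, for ENSECAT00000023089, lies between 4317238 and 4317519 on the minus strand of chromosome 14 of EquCab1 and spans an intron. It reads part of the kinase domain and is given 5′ to 3′ with no base in capitals, because the fall rests on it alone.
FGFR4: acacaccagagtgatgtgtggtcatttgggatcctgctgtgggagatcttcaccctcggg
The myogenic markers fell on the same arrays, and their part in the ratio of *FGFR4* was not tested.

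*MET*, the receptor of HGF, was not called. Its log2 ratios were -0.40, -0.12, -0.30 and 0.41, negative on arrays 1 to 3 and positive on array 4. The mean was -0.10 (95% confidence interval -0.43 to 0.22, adjusted *P* 0.609), and was 0.01 both with no lowess and with the mean of its probes. It was -0.27 without array 4 (adjusted *P* 0.0651, the lowest over the alternatives, which reach 0.987), 0.00 without array 1 and -0.04 without array 3. The 3 probes of NM_001114147 begin at bases 4215, 4275 and 6268, and their means were 0.16, -0.03 and -0.10. None was past the threshold, and on array 4 all 3 were positive (0.30, 0.21 and 0.41). The brightest probe is at 73440803 to 73440862 on the plus strand of chromosome 4 of EquCab1, the chromosome that also holds *HGF*.

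*FGFR1*, the main FGF receptor of proliferating myoblasts, had log2 ratios of 0.40, 0.12, -0.01 and -0.09. The mean of 0.11 (95% confidence interval -0.12 to 0.33, adjusted *P* 0.433) was smaller than the spread between arrays (SD 0.21), and was 0.01 without array 1 and 0.17 without array 4. The gene has a single probe, which was above the filter.

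*FGFR2* had log2 ratios of -0.17, 0.08, 0.23 and -0.60, the lowest on array 4. The mean was -0.12 (95% confidence interval -0.45 to 0.21, adjusted *P* 0.567), and without array 4 it was 0.05. Of its 12 probes, only the 2 near the end of NM_001163863, which begin at bases 4021 and 4081, were tested. The brighter of them is at 10613138 to 10613197 on the plus strand of chromosome 1 of EquCab1. The other 10, of which 5 lie in the kinase domain and 5 reach into the exon of the IIIb form, the form that binds FGF7, were below the filter. Their mean signal was 1.23 to 1.84 times the local background, and none was well above background on more than 1 array. No ratio of the IIIb form can therefore be set beside the rise of its ligand *FGF7*. A probe of that exon is given 5′ to 3′, with the bases common to all 5 probes of the exon in capitals, to show where this form was sought.
FGFR2 IIIb: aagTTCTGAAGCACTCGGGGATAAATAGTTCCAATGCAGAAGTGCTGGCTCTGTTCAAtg

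**Figure D3:**
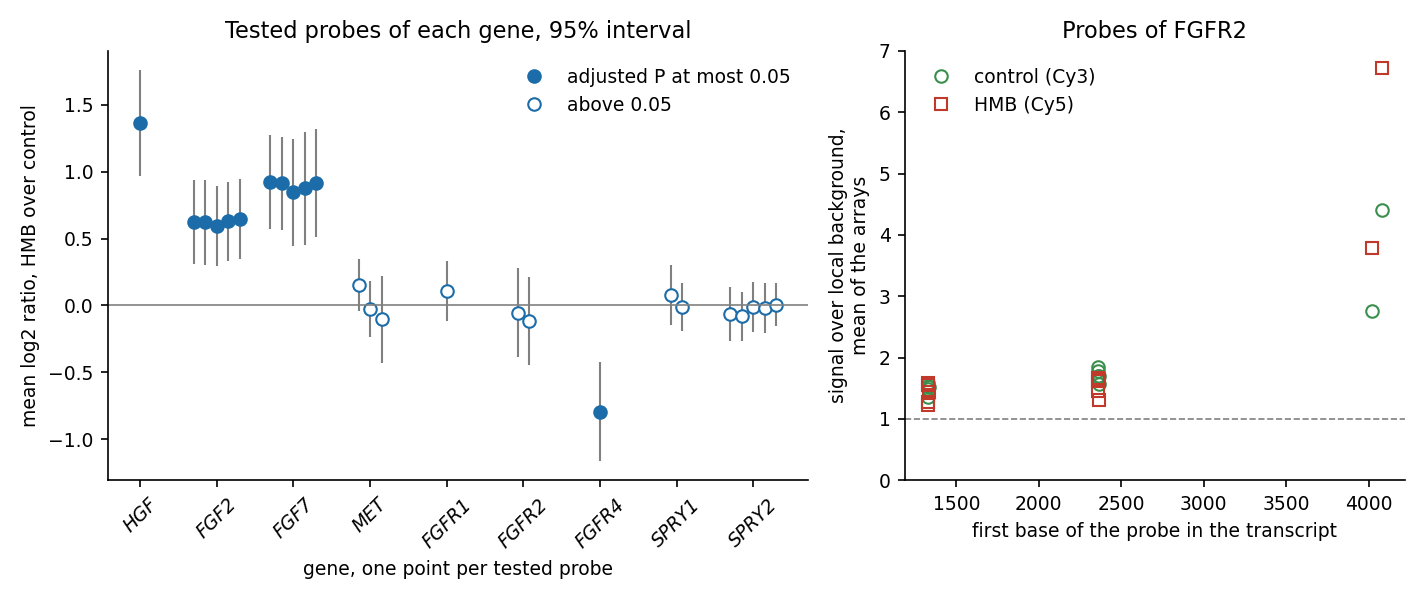
Left, the mean log2 ratio of HMB over control (vertical axis) of each tested probe, grouped by gene (horizontal axis), with its 95% confidence interval and filled symbols for an adjusted *P* of at most 0.05. Right, the signal over local background (vertical axis, a ratio) of the *FGFR2* probes against their first base in the transcript (horizontal axis), with the 2 tested probes at bases 4021 and 4081.

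*SPRY1*, which restrains ERK signalling and is needed for satellite cells to return to quiescence, had log2 ratios of 0.39, 0.07, -0.06 and -0.08, the highest on array 1. The mean was 0.08 (95% confidence interval -0.15 to 0.30, adjusted *P* 0.574), and -0.02 without array 1. Its 2 probes, of ENSECAT00000014299 on chromosome 2, had means of 0.08 and -0.01. *SPRY2*, an inhibitor of the same family, had ratios of -0.31, -0.02, -0.07 and 0.14. Its mean was -0.06 (95% confidence interval -0.27 to 0.14, adjusted *P* 0.615), and 0.02 without array 1. The 5 probes of ENSECAT00000002198 on chromosome 17 had means between -0.08 and 0.00. Neither gene was past the threshold with any array left out.

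The other genes of the pathway were taken in 8 lists by role. Of 99 genes, 76 were on the array, 55 were tested and 18 changed, 8 of them higher and 10 lower, with a median log2 ratio of -0.04. This median was -0.06 without array 2 and turned to 0.02 without array 4. Over all tested genes the share changed was 22.5% (10.9% higher, 11.6% lower) and the median 0.02, and whether the lists differ from this was not tested. Leaving out array 2 gave a count of 6, all among the 18, and leaving out array 3 gave 10, of which 9 were. With both channels treated as separate samples it was 7, all among the 18, and with no filter on dim probes 10, of which 6 were. In a t-test of each probe on its own it was 2, *NDST2* and *HS6ST2*, the latter with no HMB channel well above background. With both channels well above background it was 16 of 52 tested, since *HS6ST2* and *DUSP9* were then not tested.

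Of 19 other FGF genes, 15 were on the array and 6 tested, and 3 were lower, with a median of -0.52, which was -0.32 without array 4 and -0.02 with no filter on dim probes. *FGF5*, a secreted ligand that limits hair growth, had ratios of -0.95, -0.47, -0.90 and -1.05 (mean -0.84, SE 0.10, adjusted *P* 0.00471). Its probe was dim, at 2.67 times the local background in Cy3 and 2.72 times in Cy5, though well above background on all 4 arrays. *FGF13* (-0.70, adjusted *P* 0.00573) and *FGF12* (-0.56, adjusted *P* 0.0188) encode intracellular proteins that bind sodium channels and are not secreted ligands. All 3 were negative on all 4 arrays, and the call of *FGF12* was lost without array 3 (adjusted *P* 0.0739, in a range from 0.0123 to 0.128 over the alternatives). With normexp background correction and loess the mean of *FGF5* was -0.33, still past the threshold. The ligands thus moved both ways, with *HGF*, *FGF2* and *FGF7* higher and *FGF5* lower.

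In the other lists around ligand and receptor little could be measured. Of 7 other FGF receptors and co-receptors 3 were on the array and 1 was tested. This was *FGFR3* (0.11, adjusted *P* 0.420), which had ratios of both signs, while *KL* and *KLB*, the co-receptors of endocrine FGF, were below the filter. Of 7 genes of HGF activation and the receptor related to MET, 3 were on the array and 1 was tested. This was *SPINT2* (-0.12, adjusted *P* 0.424), an inhibitor of the proteases that activate HGF. By limma 0 genes changed in either list, and 0 had an unadjusted *P* under 0.05. With no filter on dim probes *KLB* was past the threshold by limma, as higher. In the list of HGF activation 0 were then past it, and 1 had an unadjusted *P* under 0.05.

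Heparan sulphate chains hold HGF and FGF at the cell surface and help them to bind their receptors. Of 18 genes for its core proteins and enzymes, 14 were on the array and 13 tested, of which 1 was higher and 4 were lower, with a median of -0.18. With both channels well above background 12 were tested, of which 1 was higher and 3 were lower. *GPC3*, a glypican, had ratios of -0.74, -0.95, -0.72 and -1.21 (mean -0.91, SE 0.10, adjusted *P* 0.00317), and 1 of its 2 tested probes was past the threshold. With normexp background correction and loess it was at -0.51, still past the threshold. *SDC2*, a syndecan, had ratios of -0.60, -0.60, -0.45 and -1.64 (mean -0.82, SE 0.20, adjusted *P* 0.0306), array 4 standing apart. *HSPG2*, perlecan, was lower (-0.33, adjusted *P* 0.0402) and *NDST2*, an enzyme of N-sulphation, was higher (0.23, adjusted *P* 0.0343).

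*HS6ST2*, which adds sulphate groups to the chains, was also called lower. On none of the arrays was its HMB channel well above background, while its control channel was on 4. The gene was thus tested only through the group in which it was higher, and no measured fold is given. When single-channel values are scaled across arrays and the dim channel is raised to the floor of its array, the gene was at least 1.68-fold lower with HMB, a bound that is open to dye bias. With normexp background correction and loess, which adds an offset to both channels, its mean was -0.28, a smaller difference than this bound, so the bound holds only for signals without that offset.

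Of the 4 changed heparan sulphate genes with both channels well above background, *GPC3* was the 1 past the threshold when array 2 or array 3 was left out, and without array 1 *GPC3* and *HSPG2* were. For *SDC2* the adjusted *P* was 0.0660, 0.0647 and 0.0532 without array 1, 2 or 3, in a range up to 0.237 over the alternatives. For *HSPG2* it was 0.145, 0.0914 and 0.0728 without array 2, 3 or 4, in a range up to 0.471. For *NDST2* it was 0.0661, 0.162 and 0.135 without array 1, 2 or 3, in a range up to 0.194.

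Among 12 adaptors that link the receptors to RAS, all were on the array, 9 were tested and 3 changed, with a median of -0.12. The median was -0.07 without array 1, -0.04 without array 4 and -0.05 with normexp background correction and loess. *GRB2* (-0.21, adjusted *P* 0.0473) and *SOS2* (-0.28, adjusted *P* 0.0334), an adaptor and an exchange factor that load RAS with GTP, were lower. *PTPN11* (0.25, adjusted *P* 0.0356), the phosphatase SHP2, was higher. Of the 5 tested probes of *GRB2*, 2 were past the threshold, with means of all 5 from -0.22 to -0.17, and with the mean of its probes the gene lost its call (adjusted *P* 0.0571). With no lowess the mean of *GRB2* was -0.06 (adjusted *P* 0.572, the range over the alternatives starting at 0.0111). *PTPN11* lost its call with no lowess and with normexp background correction and loess. Over the alternatives the adjusted *P* reached 0.183 for *PTPN11* and 0.579 for *SOS2*. With an added minimum of 1.3-fold the count was 0. All 3 lost their call without array 1, when *FRS2* alone was past the threshold, and without array 2 or 3, when the count was 0, and *SOS2* alone kept it without array 4. By limma 2 of the 9 without array 2 and 3 without array 3 had an unadjusted *P* under 0.05.

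Of 11 genes of the RAS-RAF-ERK cascade, 6 were on the array and tested, and by limma 0 changed. Their means lay between -0.22 and 0.23 with a median of -0.04, and 1 had an unadjusted *P* under 0.05. Without array 1 and without array 4 the count was 1, namely *MAPK3* and *NRAS*, respectively, and with no lowess it was 1, namely *NRAS*. The median was -0.13 without array 1 and 0.01 without array 4.

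Of 14 feedback inhibitors other than *SPRY1* and *SPRY2*, 13 were on the array and 10 tested, of which 4 were higher and 1 was lower, with a median of 0.29. With no filter on dim probes the median was 0.16, 0 were higher and 2 others, *SPRY4* and *SPRED2*, were lower, and in a t-test of each probe on its own 0 changed, although in these settings 9 and 6 had an unadjusted *P* under 0.05. *DUSP6*, the phosphatase of ERK that ERK signalling itself induces, had ratios of 0.37, 0.65, 0.42 and 0.85 (mean 0.57, SE 0.10, adjusted *P* 0.0109). *DUSP7* (0.47, adjusted *P* 0.0130), a related phosphatase, *SPRED1* (0.43, adjusted *P* 0.0125), which blocks the activation of RAF, and *ERRFI1* (0.60, adjusted *P* 0.0262), an inhibitor of the epidermal growth factor receptor, were also higher on all 4 arrays. *DUSP9*, a further ERK phosphatase, was called lower, but its HMB channel was well above background on 2 of the 4 arrays. It was thus tested through the group in which it was higher, and no mean is given. With both channels well above background 8 of the list were tested and 4 changed, all 4 of them higher. With normexp background correction and loess *DUSP9* was not past the threshold (adjusted *P* 0.149, in a range from 0.00914 to 0.454 over the alternatives), and *DUSP7*, at 0.25, still was.

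Without array 2 only *DUSP6* of these 5 was past the threshold. *SPRED1* (adjusted *P* 0.0631), *DUSP7* (0.0601), *DUSP9* (0.0552) and *ERRFI1* (0.0810) were then above it, and *ERRFI1* was also above it without array 1 (0.0770) and array 4 (0.0509). Over the alternatives the adjusted *P* reached 0.228 for *SPRED1*, 0.0932 for *DUSP7*, 0.0969 for *DUSP6* and 0.339 for *ERRFI1*.

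Of 11 genes downstream of ERK, transcription factors and the D1 cyclin, 10 were on the array and 9 tested, and 2 were higher, with a median of 0.06. *EGR1*, an immediate early gene, had ratios of 0.41, 0.79, 0.70 and 0.10 (mean 0.50, SE 0.12, adjusted *P* 0.0318), the lowest on array 4. *ELK3*, an ETS factor that ERK phosphorylates, had ratios of 0.23, 0.29, 0.29 and 0.67 (mean 0.37, SE 0.09, adjusted *P* 0.0317). Neither was past the threshold without array 1, 2 or 3, with adjusted *P* values from 0.0525 to 0.116 and up to 0.168 over the alternatives. They were not past it either with separate channels or with no filter on dim probes. Without array 1, 2 or 3 the count by limma was 0, with 2, 3 and 4 of the 9 at an unadjusted *P* under 0.05. The other 7 had means from -0.19 to 0.57.

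**Figure D4:**
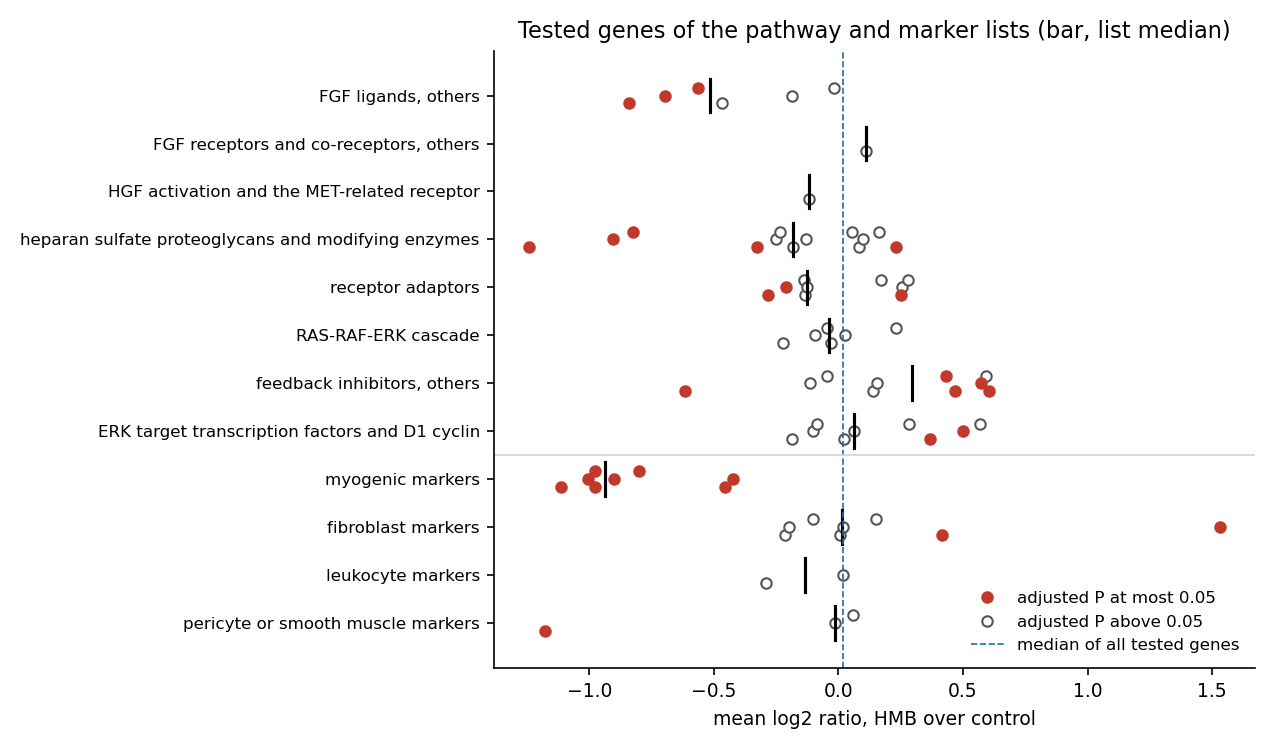
The mean log2 ratio of HMB over control (horizontal axis) of every tested gene of the pathway and marker lists (vertical axis), filled for an adjusted *P* of at most 0.05, with the list median as a bar and the median of all tested genes (0.02) as a dashed line. The 8 myogenic markers are all lower, and 4 of the 5 changed feedback inhibitors are higher.

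The 4 changed genes differed in how far their call depended on the processing. In a t-test of each probe on its own, none of them was past the threshold after adjustment, with adjusted *P* values of 0.0829 to 0.136, although all 4 had an unadjusted *P* under 0.05. With both channels as separate samples and no pairing within an array, *HGF* was the 1 past the threshold, and likewise with no filter on dim probes. Their directions were the same in every setting in which they were tested, but these settings share arrays and several keep the mean of a probe.

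**Figure D5:**
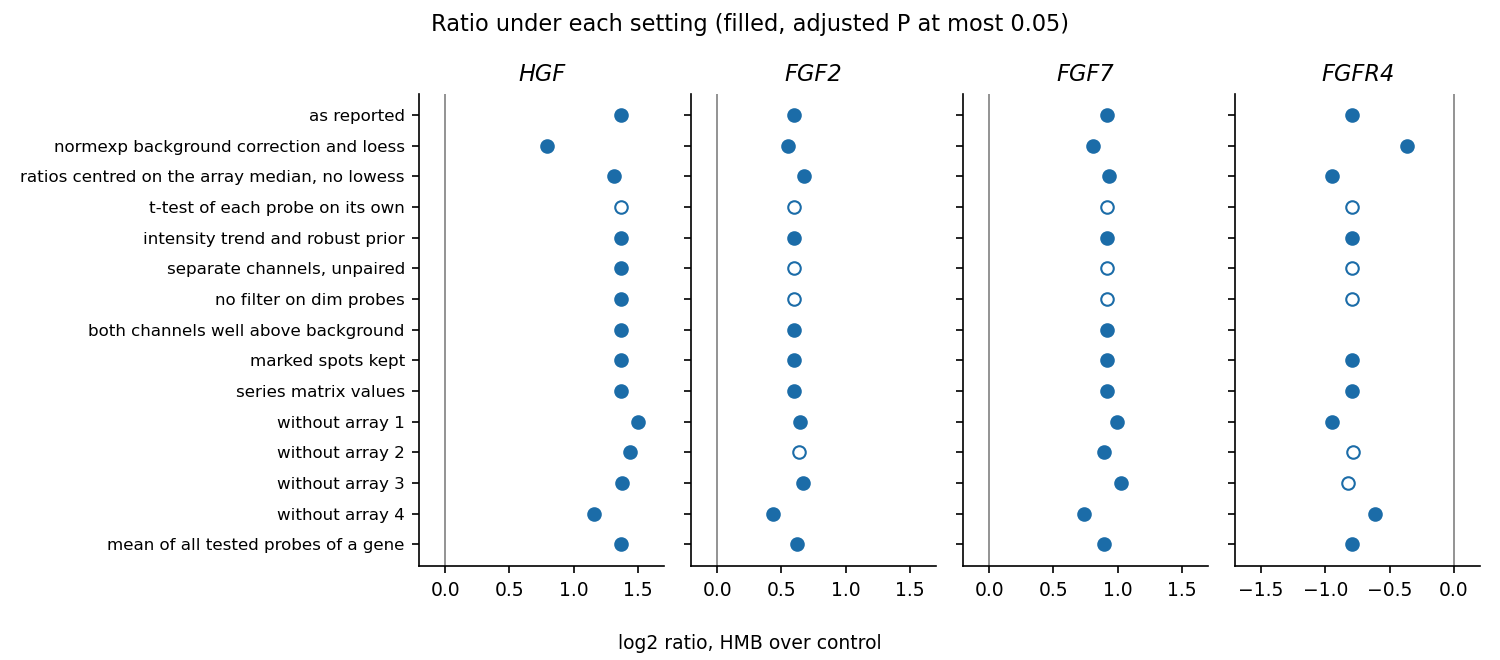
The mean log2 ratio of HMB over control (horizontal axis) of *HGF*, *FGF2*, *FGF7* and *FGFR4* as reported and under each alternative setting (vertical axis), filled for an adjusted *P* of at most 0.05. With normexp background correction and loess *HGF* is at 0.79 and *FGFR4* at -0.37, and *FGFR4* was not tested when both channels had to be well above background.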

How the data were processed

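ESC mRNA with and without HMB was measured on 4 two-colour arrays. The authors made the files with Feature Extraction, version 10.10.1.1 in the deposited files and another version in the methods. The deposited log10 values are ratios of Cy5 over Cy3, made from background-subtracted signals by linear and lowess dye normalisation. The deposited intensity values are the raw, background-subtracted and processed signals of each channel. The remaining deposited columns mark a spot, by 0 or 1, as above background, saturated, outlying or non-uniform.

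A factor of 3.32 took the ratios to log2. Control spots (1417 on an array) and spots with a non-uniform or outlier mark were not used, replicate spots were averaged, and a probe needed values from at least 3 arrays. The test of each mean was that of limma 3.58.1 under R 4.3.3 (intercept, empirical Bayes, two-sided), with *P* values adjusted by Benjamini and Hochberg for 27384 probes and a threshold of 0.05. Other software was Python 3.11.15 with pandas 2.3.3, numpy 2.4.6 and matplotlib 3.10.9, and the R package data.table, version 1.17.8. The procedure was run on simulated ratios with independent noise for each probe. These held no dye bias, no correlation between probes and no floor of dim channels, so the run does not cover those limits. Probe sequences and EquCab1 positions came from the deposited files. Symbols are those of the files and, for pathway and marker lists, also those of the RefSeq gene table.

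The members and lists were chosen with earlier results of these data known. Every member with a probe is named, and from each pathway list the genes past the threshold, up to 6 by size of the mean. The lists were other FGF ligands, other FGF receptors and co-receptors, HGF activation and the MET-related receptor, heparan sulphate proteoglycans and enzymes, receptor adaptors, the RAS-RAF-ERK cascade, other feedback inhibitors, and ERK target transcription factors with D1 cyclin. The marker lists were myogenic, fibroblast, endothelial, leukocyte, adipocyte, and pericyte or smooth muscle.

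As alternatives, the ratios were made anew by normexp (offset 50) with loess, or centred per array with no lowess. The test was replaced by a t-test of each probe on its own ratios, by a robust prior with an intensity trend, or by a fit to separate channels with no replicate block, which ignores the pairing within an array. Dim probes were all kept, or both channels had to be bright. Marked spots were kept, the summary table was used as the source, a change of at least 1.3-fold was required, or the probes of a gene were averaged. Each array was also left out, keeping the tested probes and requiring at least 2 values.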

Additional observations from a re-analysis of the deposited data

Results flagged for a closer look

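In 39 named genes, the 4 ratios of each were searched for an array far from the rest. In 3 genes such an array was found, in each case array 4. Chance flags about 1 in 20 groups, and whether 3 in 39 differ from this was not tested. *FGF2* had a log2 ratio of 1.07 on array 4 and of 0.39 to 0.47 on the other arrays. *SDC2* had a ratio of -1.64 on array 4 and of -0.60 to -0.45 on the others. *ELK3* had a ratio of 0.67 on array 4 and of 0.23 to 0.29 on the others. The ratios of all tested probes had an SD of 0.48 on array 4 and of 0.35, 0.34 and 0.39 on arrays 1 to 3.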

How the results depend on the processing

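Of the tested probes 6257 were past the threshold, 49.1% of them higher. The count was 768 in a t-test of each probe on its own, 2226 with separate channels and no replicate block (29.9% higher), 3690 with no filter on dim probes and 3863 with an added minimum of 1.3-fold. It was 2564 to 4981 with an array left out (36.2% higher without array 2), and 59.2% of 7830 were higher with no lowess. The 4 changed members became 0 in the t-test (4 at an unadjusted *P* under 0.05), 1 with separate channels, 1 with no filter and 2 to 4 with an array left out. The count of pathway genes, 18, was 2, 7, 10 and 6 to 18 in these settings, of which 2, 7, 6 and at most 14 were among the 18. In the t-test, where the mean stays the same, *HGF* at 1.36 was no longer past the threshold, and *FGF2* at 0.60, *FGF7* at 0.91 and *FGFR4* at -0.79 were not past it there, with separate channels or with no filter. With an array left out, *FGF2* was 0.44 to 0.66, *FGFR4* -0.95 to -0.61, *FGFR2* -0.23 to 0.045, *SPRY1* -0.024 to 0.13 and *SPRY2* -0.13 to 0.017. The values of *FGFR4* other than -0.61 include array 4, where its HMB channel was not well above background, and are not measured folds. The sign of *FGFR2* turned without array 4, and that of *SPRY1* and of *SPRY2* without array 1. *MET* turned to 0.015 with no lowess and to 0.0087 with the mean of its probes. *FGFR4* was not tested when both channels had to be well above background. For 30 named genes of the lists, 303 of 417 values under alternatives kept their direction and call, 114 kept the direction and lost the call, and 0 turned. All of the 30 but *FGFR3* were named because they were past the threshold on these same arrays. Several alternatives keep the mean of a probe, and those with an array left out share the other arrays. A kept direction was thus largely fixed in advance. The cause of these differences was not tested. A signal of 3.16 to 3.82 times background in Cy3 limits what dim probes such as those of *FGF1* can show.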
